A study of Arabidopsis thaliana with 12 samples.

Results

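The genes described here are the nuclear genes for the light-harvesting antenna proteins, the small subunit of Rubisco and the nuclear-encoded subunits of both photosystems of Arabidopsis thaliana, given as a list of 42 locus codes by family. The rule uses no measured value, but the list was drawn up with earlier results of these data known. They comprise 14 genes of the photosystem II antenna (LHCB1 to LHCB6), 6 of the photosystem I antenna (LHCA), 4 Rubisco small subunit genes (RBCS), 12 photosystem I subunit genes (PSA) and 6 photosystem II subunit genes (PSB), out of 37336 genes in the table. Of these, 41 passed the filter on low counts, as did 21376 genes in all. The member that did not was LHCB1.5 (AT2G34420).

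LHCB and LHCA proteins bind chlorophyll and pass light energy to the reaction centres of photosystem II and photosystem I. LHCB1, LHCB2 and LHCB3 build the trimeric major antenna LHCII, and LHCB4, LHCB5 and LHCB6 are the minor antenna proteins CP29, CP26 and CP24, which link LHCII to the photosystem II core. Rubisco, the carboxylase of the Calvin cycle, pairs small subunits from the RBCS genes with a large subunit encoded in the plastid. These nuclear genes are switched on by light while cotyledons green, through regulators that include HY5, the GLK factors and the circadian clock.

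Messenger RNA was measured by poly(A)-selected RNA sequencing of whole seedlings at 3 days after germination (DAG). The wild type was Col-0, and the mutant carried er-105 and erl2-1, alleles of ERECTA and ERECTA-LIKE 2, related receptor kinases that act in growth and stomatal patterning; ERL1, the remaining family member, was not mutated. All seedlings grew on solid MS medium, spent 30 min in liquid MS, and then received for 30 min either 0.02% DMSO (mock) or 1 uM of the auxin indole-3-acetic acid (IAA) in 0.02% DMSO. Each of the 4 groups had 3 libraries. The labels do not say whether these came from separate cultures, so p-values measure the spread between these libraries.

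Totals ranged from 28930625 to 35837999 counts per library. ER had 1636 to 1973 counts in the 6 wild-type libraries and 159 to 310 in the 6 er erl2 libraries, and ERL2 had 287 to 414 and 73 to 142, so both targeted genes stood lower in every library labelled er erl2. Levels are given as CPM, read counts relative to the library total after TMM scaling, which do not correct for gene length. A gene is said to be higher or lower where its Benjamini-Hochberg adjusted p in edgeR's quasi-likelihood test over all 21376 genes was under 0.05, and log2 fold changes are er erl2 over wild type unless IAA over mock is named.

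The 42 genes took 11.8% to 13.7% of all counts in a library. LHCB1.3 was the most counted gene and RBCS1A the next in all 12 libraries. On a scale corrected for length (CPM per kb of exon, mean ± SD of the 3 wild-type mock libraries), LHCB1.3 stood at 12156 ± 555, RBCS1A at 9250.3 ± 570.5 and PSBR, a photosystem II subunit of the oxygen-evolving side, at 5821 ± 212. The order at the low end was LHCA5 at 131 ± 7.08, LHCA6 at 48.0 ± 0.946 and LHCB4.3 at 2.71 ± 0.0475. LHCA5 and LHCA6, minor antenna proteins that join photosystem I to the NDH complex, thus stood far below LHCA1 to LHCA4, the main photosystem I antenna. LHCB4.3, an atypical CP29 gene, was lower still than its paralogs LHCB4.1 (2446 ± 47.8) and LHCB4.2 (1464 ± 106).

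Several members are near-identical copies lying side by side. Promoters of LHCB1 and LHCB2 copies are shown because these copies were higher in both treatments, and those of the RBCS copies of chromosome 5 because RBCS1B was higher and RBCS3B lower under mock; differences between copies were not tested. LHCB1.1, LHCB1.2 and LHCB1.3 adjoin each other on chromosome 1, LHCB1.4 and LHCB1.5 form a divergent pair on chromosome 2, and RBCS1B, RBCS2B and RBCS3B lie in a row on chromosome 5. Within the LHCB1 copies the coding sequences were 86.8% to 96.4% identical, and RBCS1B and RBCS2B were 97.3% identical. The sequences below are the 250 bases before the annotated gene start, 5′ to 3′ on the coding strand, read from RefSeq's TAIR10.1 genome, whereas the submitters' notes name TAIR10. Capitals mark the G-box CACGTG, the I-box GATAAG and the CCA1 binding site AAAAATCT on either strand. The windows are chr1:10475970-10476219 (minus strand) for LHCB1.1, chr2:14524357-14524606 (plus strand) for LHCB1.4, chr2:1800473-1800722 (minus strand) for LHCB2.2 and chr3:10255656-10255905 (plus strand) for LHCB2.3. Those of the RBCS genes are chr5:15385321-15385570 (minus strand) for RBCS1B, chr5:15382072-15382321 (minus strand) for RBCS2B and chr5:15378643-15378892 (minus strand) for RBCS3B.
LHCB1.1: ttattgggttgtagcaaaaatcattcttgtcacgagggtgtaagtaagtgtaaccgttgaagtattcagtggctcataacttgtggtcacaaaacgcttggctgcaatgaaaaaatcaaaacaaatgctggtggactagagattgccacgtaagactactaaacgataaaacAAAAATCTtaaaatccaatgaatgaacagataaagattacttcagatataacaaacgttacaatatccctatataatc
LHCB1.4: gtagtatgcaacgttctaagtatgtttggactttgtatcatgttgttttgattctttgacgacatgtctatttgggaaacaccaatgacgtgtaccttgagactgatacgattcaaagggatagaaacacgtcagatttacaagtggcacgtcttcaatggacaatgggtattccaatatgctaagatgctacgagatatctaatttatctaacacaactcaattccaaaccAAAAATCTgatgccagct
LHCB2.2: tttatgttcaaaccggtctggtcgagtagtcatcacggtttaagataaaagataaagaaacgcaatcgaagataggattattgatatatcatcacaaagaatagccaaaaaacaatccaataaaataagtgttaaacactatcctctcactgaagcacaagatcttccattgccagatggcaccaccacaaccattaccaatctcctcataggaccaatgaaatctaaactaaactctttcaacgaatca
LHCB2.3: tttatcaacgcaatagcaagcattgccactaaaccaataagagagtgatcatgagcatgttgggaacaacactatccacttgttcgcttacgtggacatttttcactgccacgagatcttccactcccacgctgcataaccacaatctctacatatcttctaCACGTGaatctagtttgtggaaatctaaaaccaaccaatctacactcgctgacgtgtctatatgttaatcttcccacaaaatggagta
RBCS1B: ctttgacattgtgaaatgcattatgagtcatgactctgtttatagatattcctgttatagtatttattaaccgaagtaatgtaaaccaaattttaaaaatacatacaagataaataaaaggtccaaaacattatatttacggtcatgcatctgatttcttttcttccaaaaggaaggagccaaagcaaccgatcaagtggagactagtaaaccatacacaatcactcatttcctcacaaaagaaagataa
RBCS2B: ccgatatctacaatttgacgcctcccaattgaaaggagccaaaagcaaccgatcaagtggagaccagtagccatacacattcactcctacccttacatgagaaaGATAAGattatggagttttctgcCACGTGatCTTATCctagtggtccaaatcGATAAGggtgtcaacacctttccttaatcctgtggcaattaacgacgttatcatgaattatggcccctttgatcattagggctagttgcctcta
RBCS3B: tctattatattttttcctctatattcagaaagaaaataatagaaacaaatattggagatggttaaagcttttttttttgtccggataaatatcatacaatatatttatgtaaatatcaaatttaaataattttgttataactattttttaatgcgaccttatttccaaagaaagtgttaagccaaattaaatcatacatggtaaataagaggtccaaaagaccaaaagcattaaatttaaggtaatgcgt

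Searched on both strands, the G-box was in 9 of the 42 windows (21.4%) and in 6.49% of the 27443 windows of all protein-coding genes. The I-box was in 10 (23.8%), against 12.3% of all windows. The CCA1 site was in 5 (11.9%), against 6.69%, and the evening element AAAATATCT was in 1 (2.38%), against 2.36%. CCAAT was in 28 (66.7%), against 46% of all windows. No motif searched contains another. The RBCS2B window held 1 G-box and 3 I-boxes, and its neighbours RBCS1B and RBCS3B held neither. LHCB2.3 held the G-box and its paralog LHCB2.2 did not. A match is a description of letters, and a window without one says nothing about a factor.

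Under mock treatment the major photosystem II antenna was higher in er erl2. Of the 41 tested genes 11 were higher (8.4% of all tested genes were higher) and RBCS3B alone was lower (7.33% of all genes were lower). All 7 tested LHCB1 and LHCB2 genes were among the higher ones, by 0.21 to 0.37 on the log2 scale, together with LHCB3, LHCB4.3, RBCS1B and PSAD2. The median log2 fold change was 0.14 over the 41 genes and -0.01 over all tested genes. These are bulk seedlings, in which more cells of a green type and more RNA per cell cannot be told apart. Without the second wild-type mock library 7 members were called instead of 12, and without the second er erl2 mock library 6 were. With their libraries compared directly, 22 members had all er erl2 mock libraries above all wild-type mock libraries (16.9% of all genes did) and RBCS3B had all below (16.6%).

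**Figure D1:**
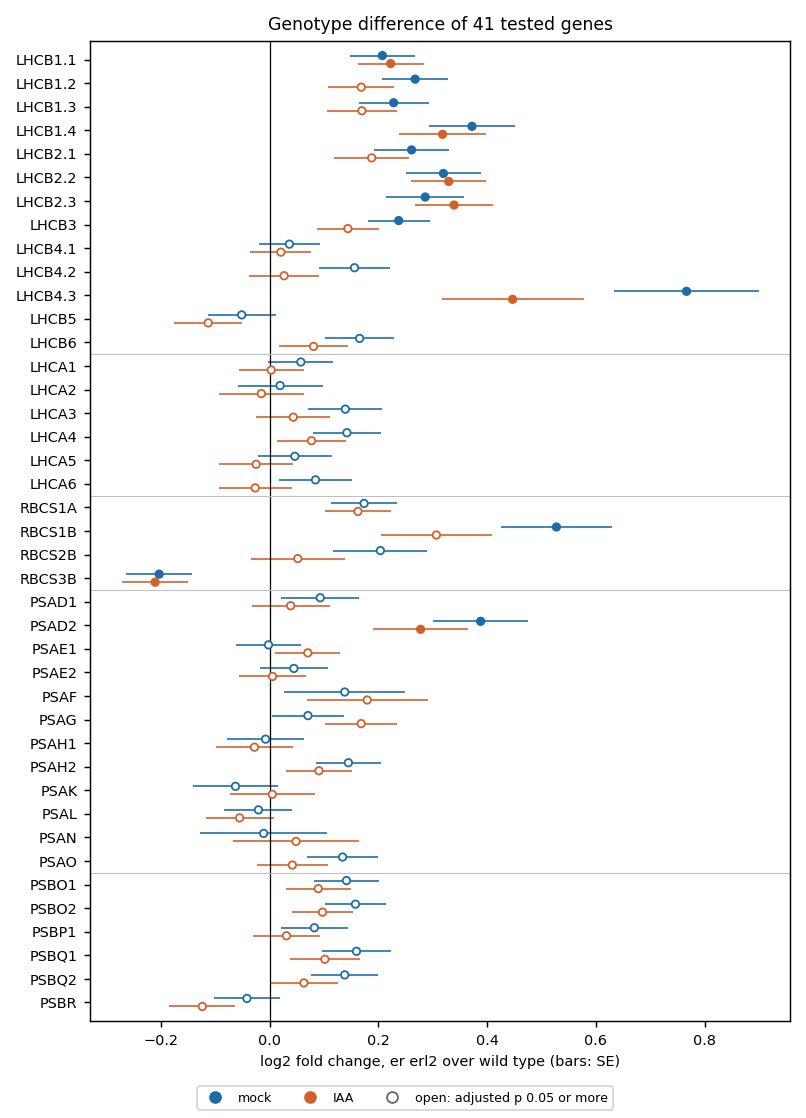
Log2 fold change of er erl2 over wild type (x axis) for each of the 41 tested genes (y axis, grouped by role), under mock in blue and under IAA in orange, with bars for the SE and filled points for an adjusted p under 0.05. The filled points gather among LHCB1, LHCB2, LHCB3 and LHCB4.3, with RBCS1B and PSAD2 to the right and RBCS3B to the left, while all 6 LHCA points are open.

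LHCB1 proteins form the bulk of LHCII. LHCB1.3 (AT1G29930), the most counted copy, measured 15730.5, 14457 and 14666 CPM in the wild type under mock and 16874, 14731 and 16148 under IAA, against 17398, 18322 and 16816 in er erl2 under mock and 16899.9, 18648 and 18166 under IAA. The mock libraries of the genotypes did not overlap, and neither did the IAA libraries, although the highest wild-type IAA library lay only just under the lowest er erl2 one. Its log2 fold change was 0.23 (SE 0.064, edgeR adjusted p = 0.0269) under mock and 0.17 (SE 0.064, edgeR adjusted p = 0.0949) under IAA, so it was called under mock alone.

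LHCB1.4 (AT2G34430), a copy on chromosome 2, measured 3564, 3113 and 3193 CPM in the wild type under mock and 3636, 3178 and 3677 under IAA, against 4003, 4565 and 4206 in er erl2 under mock and 3998, 4383 and 4695 under IAA. All 6 er erl2 libraries stood above all 6 wild-type ones. It was 29.4% higher under mock, with a log2 fold change of 0.37 (SE 0.079, edgeR adjusted p = 0.00572), and 24.7% higher under IAA, at 0.32 (SE 0.079, edgeR adjusted p = 0.0157). The IAA call was lost without the second wild-type IAA library or the third er erl2 IAA library (largest adjusted p 0.0785).

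LHCB1.2 (AT1G29910) measured 6499, 5994 and 6133 CPM in the wild type under mock and 7069, 6264 and 6891 under IAA, against 7603, 7721 and 7101 in er erl2 under mock and 7259, 7755 and 7718 under IAA. Its 6 er erl2 libraries also stood above all 6 wild-type ones. It was higher under mock, at 0.27 (SE 0.061, edgeR adjusted p = 0.0083), a call kept in all 18 refits (6 under other settings and 12 without 1 library each), and measured 0.17 (SE 0.061, edgeR adjusted p = 0.0795) under IAA. LHCB1.1 (AT1G29920) measured 4505, 4675 and 4726 CPM in the wild type under mock and 4917, 4936 and 5255 under IAA, against 5168, 5531 and 5356 in er erl2 under mock and 5418, 6308 and 5902 under IAA. Within each treatment its genotypes did not overlap, but the highest wild-type IAA library exceeded the lowest er erl2 mock library. It was higher under mock, at 0.21 (SE 0.060, edgeR adjusted p = 0.0318), and under IAA, at 0.22 (SE 0.060, edgeR adjusted p = 0.0242). Both LHCB1.1 calls were among the less stable: the mock call was lost without any 1 of the 3 wild-type mock libraries or of the second and the third er erl2 mock libraries (largest adjusted p 0.114), and the IAA call without the first or second wild-type IAA library or the second or the third er erl2 IAA library (largest adjusted p 0.0712). The mock call of LHCB1.3 was lost without the second or the third wild-type mock library, the first or second er erl2 mock library, or with the replicate number as a block (largest adjusted p 0.11).

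LHCB2 proteins are phosphorylated when LHCII moves between the photosystems. LHCB2.1 (AT2G05100), the most counted copy, measured 2326, 2094 and 2198 CPM in the wild type under mock and 2294, 2354 and 2619.5 under IAA, against 2464, 2776 and 2691 in er erl2 under mock and 2606, 2920.5 and 2751 under IAA. Its genotypes did not overlap under mock and did under IAA. LHCB2.2 (AT2G05070) measured 1596, 1545 and 1559 CPM in the wild type under mock and 1594, 1566 and 1787 under IAA, against 1794, 2099.7 and 1972 in er erl2 under mock and 1945, 2144 and 2125 under IAA. LHCB2.3 (AT3G27690) measured 704, 723 and 738 CPM in the wild type under mock and 750.0, 642 and 741 under IAA, against 863, 889.9 and 887 in er erl2 under mock and 809, 965 and 925 under IAA. For both, all 6 er erl2 libraries stood above all 6 wild-type ones. LHCB2.1 was higher under mock, at 0.26 (SE 0.069, edgeR adjusted p = 0.0196), and measured 0.19 (SE 0.069, edgeR adjusted p = 0.0861) under IAA. LHCB2.2 was higher under both, at 0.32 (SE 0.069, edgeR adjusted p = 0.00595) and 0.33 (SE 0.069, edgeR adjusted p = 0.0054). LHCB2.3 was also higher under both, at 0.29 (SE 0.071, edgeR adjusted p = 0.0144) and 0.34 (SE 0.071, edgeR adjusted p = 0.00579). The LHCB2.1 mock call was lost without the second or the third mock library of either genotype (largest adjusted p 0.0871), and that of LHCB2.3 without the second or the third er erl2 mock library (largest adjusted p 0.0518). No refit ended a call of LHCB2.2 or the IAA call of LHCB2.3. LHCB2.3 has 40.6% of its exon bases under exons of a gene on the other strand.

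**Figure D2:**
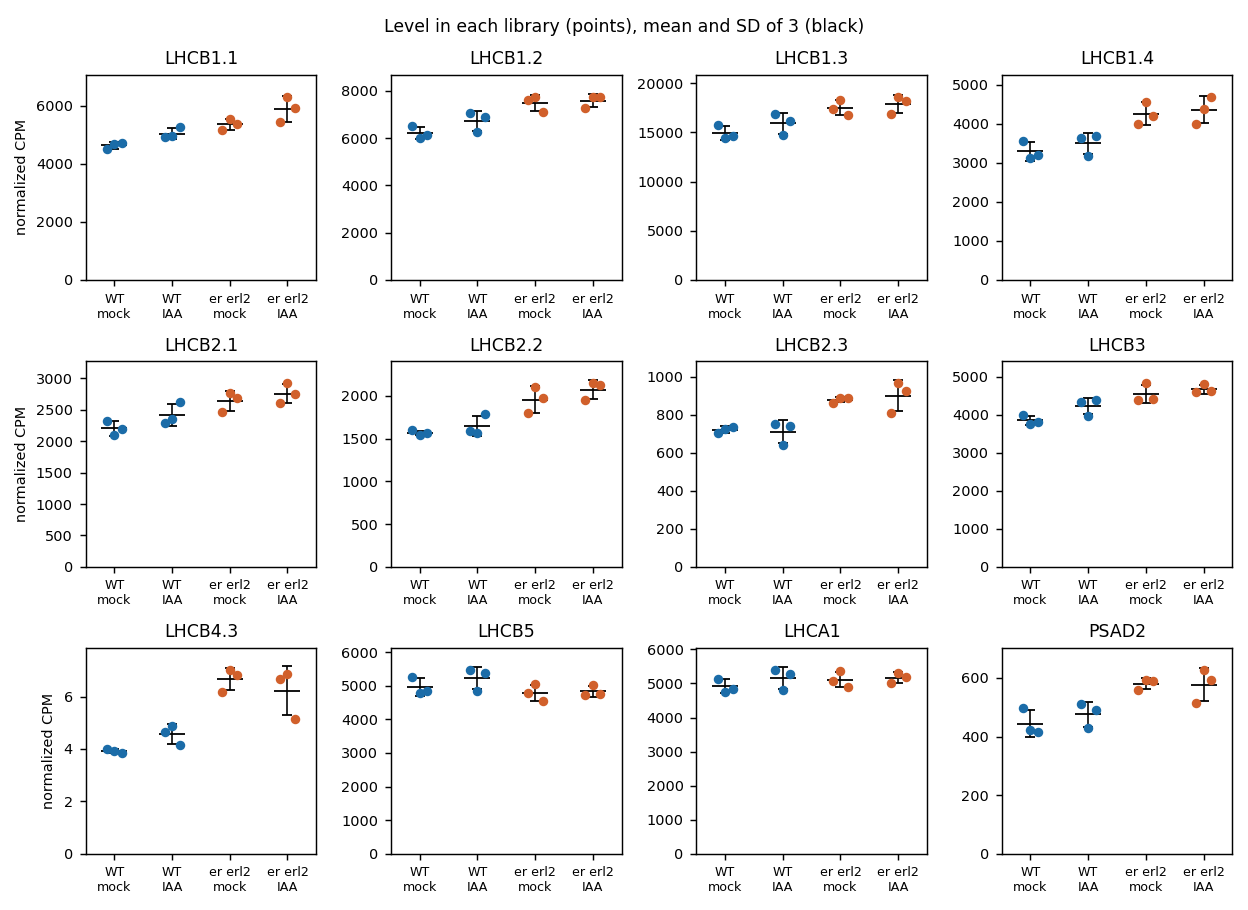
Normalized CPM (y axis, from 0) in each of the 12 libraries as points, with the mean and SD of 3 in black, for 12 genes in the 4 groups along the x axis (wild type blue, er erl2 orange). LHCB1.2, LHCB1.4, LHCB2.2, LHCB2.3, LHCB3, LHCB4.3 and PSAD2 have every er erl2 point above every wild-type point, while LHCB5 and LHCA1 overlap.

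Counts were also summed within each of the 9 families that have several copies. Over the longest annotated coding sequences, with gaps counted as unlike, identity was 86.8% to 96.4% within LHCB1 and 64% to 77.7% within LHCB2. Unequal lengths (954, 798 and 897 bases for LHCB2.1, LHCB2.2 and LHCB2.3) lower the LHCB2 values, so these do not rank the families by likeness. Stretches of 100 bases shared with another member were found in LHCB1 copies, LHCB2.1, LHCB2.2, RBCS1B and RBCS3B alone. They made up 9.87% and 12.4% of the windows of LHCB2.1 and LHCB2.2, against 1.51% to 4.44% in LHCB1 copies. The summed LHCB1 copies measured 30302, 28236 and 28715 CPM in the wild type under mock and 32496, 29105 and 31970.0 under IAA, against 34176, 36138 and 33479.9 in er erl2 under mock and 33573, 37101 and 36481 under IAA, with a log2 fold change of 0.25 (SE 0.061, edgeR adjusted p = 0.0121) under mock and 0.20 (SE 0.061, edgeR adjusted p = 0.0449) under IAA. The summed LHCB2 copies measured 4625, 4363 and 4495 CPM in the wild type under mock and 4638, 4561 and 5147 under IAA, against 5122, 5765 and 5550.4 in er erl2 under mock and 5359.5, 6031 and 5801 under IAA, at 0.29 (SE 0.065, edgeR adjusted p = 0.00888) and 0.26 (SE 0.065, edgeR adjusted p = 0.0161). Both sums were therefore higher in both treatments, and they were the higher ones among 9 summed families (8.35% of all rows were higher under mock and 7.14% under IAA). The IAA call of the LHCB1 sum was lost in 10 of 18 refits, which were the one with the replicate block and those without the second or the third wild-type mock library, any 1 wild-type IAA library, the second or the third er erl2 mock library, or the second or the third er erl2 IAA library (largest adjusted p 0.126), and its mock call without the second mock library of either genotype (largest adjusted p 0.061). The LHCB2 sum lost its IAA call without the first or second wild-type IAA library (largest adjusted p 0.0627). The other 7 sums, LHCB4, RBCS, PSAD, PSAE, PSAH, PSBO and PSBQ, were not called.

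LHCB3 (AT5G54270), the subunit of LHCII trimers close to the photosystem II core, measured 3988, 3749 and 3813 CPM in the wild type under mock and 4319.5, 3976 and 4376 under IAA, against 4377, 4819.7 and 4419.6 in er erl2 under mock and 4596, 4797 and 4608 under IAA. All 6 er erl2 libraries stood above the 6 wild-type ones, by the narrowest margin between the third wild-type IAA library and the first er erl2 mock library. It was higher under mock, at 0.24 (SE 0.057, edgeR adjusted p = 0.0118), a call lost without the second mock library of either genotype (largest adjusted p 0.0656), and measured 0.14 (SE 0.057, edgeR adjusted p = 0.112) under IAA. LHCB4.3 (AT2G40100) measured 3.99, 3.92 and 3.85 CPM in the wild type under mock and 4.66, 4.89 and 4.15 under IAA, against 6.18, 7.0 and 6.83 in er erl2 under mock and 6.66, 6.87 and 5.14 under IAA. All 6 er erl2 libraries stood above all 6 wild-type ones. LHCB4.3 was the member with the largest change, 70.1% higher under mock, at 0.77 (SE 0.132, edgeR adjusted p = 0.00133), and 36.3% higher under IAA, at 0.45 (SE 0.131, edgeR adjusted p = 0.0345). No refit ended its mock call, whereas its IAA call was lost without any 1 wild-type IAA library or without the first or second er erl2 IAA library (largest adjusted p 0.119).

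The minor antenna genes of the main CP29, CP26 and CP24 type did not pass the test. LHCB5 (AT4G10340, CP26), the most counted of LHCB3 to LHCB6, measured 5257, 4785 and 4855 CPM in the wild type under mock and 5463, 4855 and 5372 under IAA, against 4786, 5041 and 4549.8 in er erl2 under mock and 4736, 5016 and 4758 under IAA. The genotypes overlapped under both treatments, and its log2 fold change was -0.05 (SE 0.062, edgeR adjusted p = 0.632) under mock and -0.11 (SE 0.062, edgeR adjusted p = 0.254) under IAA. LHCB4.1, LHCB4.2 and LHCB6 (CP24) measured 0.04, 0.16 and 0.17 on the log2 scale under mock and 0.02, 0.03 and 0.08 under IAA. LHCB4.2 (edgeR adjusted p = 0.121) and LHCB6 (edgeR adjusted p = 0.0939) had all er erl2 mock libraries above all wild-type mock ones. Their genotypes overlapped under IAA, and those of LHCB4.1 overlapped in both treatments.

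None of the 6 photosystem I antenna genes was called in either genotype contrast (15.7% of all tested genes were called under mock and 14% under IAA, and 0 of 6 is near those shares), with log2 fold changes of 0.02 to 0.14 under mock and -0.03 to 0.08 under IAA. LHCA4 (AT3G47470), the most counted, measured 5970.4, 5405 and 5477 CPM in the wild type under mock and 6145, 5708 and 6276 under IAA, against 6045, 6599 and 5953 in er erl2 under mock and 6097, 6671 and 6355 under IAA, and its genotypes overlapped in both treatments. LHCA3 alone had all er erl2 mock libraries above all wild-type mock ones (16.9% of all genes did), at 0.14 (SE 0.068, edgeR adjusted p = 0.193). Its genotypes overlapped under IAA. To set both antennas side by side within a library, the counts of LHCB1 and LHCB2 were divided by those of LHCA1 to LHCA4, a ratio chosen after the values were seen and given without a test. It was 2.0 to 2.06 in wild-type mock, 2.02 to 2.09 in wild-type IAA, 2.25 to 2.3 for er erl2 under mock and 2.27 to 2.39 for er erl2 under IAA. The 6 er erl2 libraries all stood above the 6 wild-type ones. The counts of LHCB4 to LHCB6 over LHCA1 to LHCA4 were 0.798 to 0.808 in wild-type mock, 0.792 to 0.817 in wild-type IAA, 0.772 to 0.787 for er erl2 under mock and 0.779 to 0.785 for er erl2 under IAA, slightly lower in every er erl2 library. A ratio of this kind shows unequal change and not which side changed.

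Of the 4 Rubisco small subunit genes 1 was higher and 1 lower under mock, and 0 were higher and 1 lower under IAA. RBCS1A (AT1G67090), the most counted copy, measured 11474, 11168 and 12546 CPM in the wild type under mock and 12714, 11696 and 12947.7 under IAA, against 13529, 13213 and 12948.2 in er erl2 under mock and 13512, 14634 and 13662 under IAA. All its er erl2 libraries stood above all wild-type ones, the margin being narrow between the third wild-type IAA and the third er erl2 mock library. It did not pass the test, at 0.17 (SE 0.061, edgeR adjusted p = 0.0669) under mock and 0.16 (SE 0.061, edgeR adjusted p = 0.0909) under IAA. RBCS1B (AT5G38430) measured 659.7, 553 and 667 CPM in the wild type under mock and 779, 625 and 779.6 under IAA, against 952, 815 and 942 in er erl2 under mock and 912, 964 and 824 under IAA. Its er erl2 libraries likewise stood above every wild-type one. It was 44.1% higher under mock, at 0.53 (SE 0.102, edgeR adjusted p = 0.00363), a call kept in all 18 refits, and measured 0.31 (SE 0.101, edgeR adjusted p = 0.0626) under IAA.

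RBCS3B (AT5G38410) went the other way and had the smallest log2 fold change of all members in both contrasts. It measured 7053, 6991 and 7059.9 CPM in the wild type under mock and 7565, 6609 and 7054 under IAA, against 6272, 6231 and 5829.8 in er erl2 under mock and 6140.4, 6446 and 5762 under IAA. All 6 er erl2 libraries stood below all 6 wild-type ones. It was lower under mock, at -0.20 (SE 0.061, edgeR adjusted p = 0.0366), and under IAA, at -0.21 (SE 0.061, edgeR adjusted p = 0.0332). The mock call was lost in 9 of 18 refits, those without any 1 mock library of either genotype, without the third wild-type IAA library, without the first er erl2 IAA library and with the replicate block (largest adjusted p 0.154). The IAA call was lost in 5, those without the first or the third IAA library of either genotype and with the block (largest adjusted p 0.16). RBCS2B measured 0.20 (SE 0.087, edgeR adjusted p = 0.131) under mock and 0.05 (SE 0.087, edgeR adjusted p = 0.74) under IAA.

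As shares of all RBCS counts in a library, chosen after the values were seen, RBCS3B held 30.7 to 32.8% in wild-type mock, 30 to 31% in wild-type IAA, 25.6 to 26.7% for er erl2 under mock and 24.9 to 26.1% for er erl2 under IAA. RBCS1A held 51.8 to 54.6%, 52.1 to 55%, 56.2 to 56.8% and 57.4 to 59.1% in the same order of groups. The summed RBCS counts, by contrast, measured 0.08 (SE 0.059, edgeR adjusted p = 0.402) under mock and 0.05 (SE 0.059, edgeR adjusted p = 0.632) under IAA. RBCS1B and RBCS3B share 100-base stretches (7.3% and 9.99% of their windows), so reads may be divided between them. Around the RBCS genes of chromosome 5, 14% of the 50 nearest tested genes on each side differed at least 2-fold between genotypes in both treatments, against 2.16% of all genes. This share was 17% around PSAL, a photosystem I subunit gene that was not called, 5% around PSBQ1 and PSBQ2, 6% around LHCB5 and 0% to 4% around every other tested member. What part the surroundings have in the RBCS values was not tested.

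**Figure D3:**
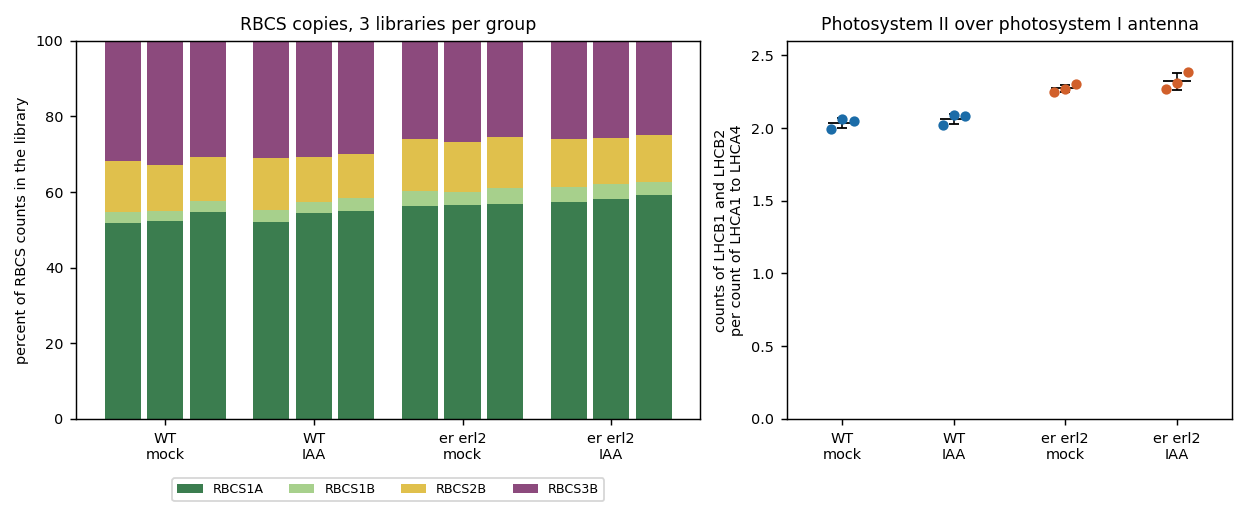
Left, the percent of RBCS counts (y axis) held by each of the 4 RBCS copies in each of the 12 libraries, 1 stacked bar a library. Right, counts of LHCB1 and LHCB2 per count of LHCA1 to LHCA4 (y axis) in each library, with the mean and SD of 3. The RBCS3B part of the bar is smaller in every er erl2 library, and the er erl2 points at 2.25 to 2.3 and 2.27 to 2.39 lie above the wild-type points.

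Among the 12 photosystem I subunit genes PSAD2 alone was called, so that 1 of 12 was higher, close to the share of all tested genes (8.4% under mock and 7.14% under IAA). PSAD proteins form the docking site for ferredoxin on the stromal side. PSAD2 (AT1G03130), the less counted of the pair, measured 497, 421 and 414 CPM in the wild type under mock and 511, 428 and 491 under IAA, against 559.9, 594 and 589 in er erl2 under mock and 515, 626 and 592 under IAA. All 6 er erl2 libraries stood above all 6 wild-type ones. It was 30.9% higher under mock, at 0.39 (SE 0.088, edgeR adjusted p = 0.00846), and 21.2% higher under IAA, at 0.28 (SE 0.088, edgeR adjusted p = 0.0493). The mock call was kept in all 18 refits and the IAA call was lost in 9, which were the one with the replicate block and those without the second wild-type mock library, the second or the third wild-type IAA library, any 1 er erl2 mock library, or the second or the third er erl2 IAA library (largest adjusted p 0.171). Its paralog PSAD1 measured 0.09 and 0.04 on the log2 scale. PSAL (AT4G12800), the most counted PSA gene, which lies at the side of photosystem I where LHCII docks, measured 3082, 2892 and 2998 CPM in the wild type under mock and 3349, 2851 and 3092 under IAA, against 2934, 3058 and 2853 in er erl2 under mock and 2906, 3124 and 2914 under IAA. Its genotypes overlapped, at -0.02 (SE 0.062, edgeR adjusted p = 0.864) and -0.06 (SE 0.062, edgeR adjusted p = 0.606). The other 10 PSA genes measured -0.06 to 0.14 under mock and -0.03 to 0.18 under IAA on the log2 scale. PSAG, PSAH1, PSAE1 and PSAH2 have 61.4%, 53.3%, 34.1% and 24.8% of their exon bases under exons of genes on the other strand, so their levels are uncertain.

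None of the 6 photosystem II subunit genes was called, and 0 of 6 is near the shares of all tested genes (15.7% under mock and 14% under IAA). PSBO1 (AT5G66570), the manganese-stabilizing protein of the oxygen-evolving complex, measured 4194, 3968 and 4005 CPM in the wild type under mock and 4548, 3977 and 4361 under IAA, against 4385, 4696 and 4339 in er erl2 under mock and 4492, 4758 and 4461 under IAA. Its genotypes did not overlap under mock and overlapped under IAA, and its estimates were 0.14 (SE 0.060, edgeR adjusted p = 0.129) and 0.09 (SE 0.060, edgeR adjusted p = 0.355). PSBR (AT1G79040) measured 4726, 4394 and 4572 CPM in the wild type under mock and 5304, 4636 and 5026 under IAA, against 4426, 4628 and 4248 in er erl2 under mock and 4411, 4781 and 4544 under IAA. Its genotypes overlapped in both treatments, at -0.04 (SE 0.061, edgeR adjusted p = 0.698) and -0.12 (SE 0.061, edgeR adjusted p = 0.2). PSBO2, PSBP1, PSBQ1 and PSBQ2, extrinsic subunits of the same complex, measured 0.16, 0.08, 0.16 and 0.14 on the log2 scale under mock and 0.10, 0.03, 0.10 and 0.06 under IAA. Like PSBO1, PSBO2 (edgeR adjusted p = 0.0754), PSBQ1 and PSBQ2 had all er erl2 mock libraries above all wild-type mock ones (16.9% of all genes did). Their genotypes overlapped under IAA, and those of PSBP1 in both treatments. Under mock 4 of the 6 had an unadjusted edgeR p under 0.05, as did 6256 of all 21376 genes. Under IAA 0 of the 6 did.

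Under IAA treatment 6 members were higher in er erl2 (7.14% of all genes were) and RBCS3B was lower (6.84% of all genes were). The higher ones were LHCB1.1, LHCB1.4, LHCB2.2, LHCB2.3, LHCB4.3 and PSAD2. Each was also higher under mock, as were 4.68% of all genes in both treatments, and RBCS3B was lower in both, as were 4.01%. The count of called members fell from 7 to 3 without the second wild-type IAA library or without the third er erl2 IAA library, and to 4 without the second er erl2 IAA library. In 12 members all er erl2 IAA libraries stood above all wild-type IAA libraries (16.2% of all genes) and in RBCS3B all stood below (16.9%). Over both treatments 9 members had all 6 er erl2 libraries above all 6 wild-type ones (6.83% of all genes): LHCB1.2, LHCB1.4, LHCB2.2, LHCB2.3, LHCB3, LHCB4.3, RBCS1A, RBCS1B and PSAD2. RBCS3B had all below (6.46%). The mock and IAA contrasts share no library, but they compare the same genotypes and their spread was estimated together over all libraries. Leaving out an IAA library could thus end a mock call, as it did for RBCS3B.

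After 30 min of IAA no member passed the test in either genotype. In the wild type 0 of 41 were called (1.21% of all genes were), 3 (LHCB3, LHCB4.2 and LHCA6) had an unadjusted p under 0.05 (9.77% of all genes did), and log2 fold changes of IAA over mock ran from -0.07 to 0.22 with a median of 0.07. Wild-type estimates lay above 0 in 38 of the 41 members and in 10670 of all 21376 genes, whose median was 0. This lean was not tested. In er erl2 0 were called (1.53% of all genes), 1 (LHCB1.1) had an unadjusted p under 0.05 (11.3%), and the changes ran from -0.10 to 0.13 with a median of 0.02. There 31 of the 41 members had an estimate above 0, as did 10338 of all 21376 genes. DESeq2 also called 0 in both. The largest IAA estimate was that of LHCB4.3 in the wild type, at 0.22 (SE 0.135, edgeR adjusted p = 0.633), with 3.99, 3.92 and 3.85 CPM under mock and 4.66, 4.89 and 4.15 under IAA. In er erl2 LHCB4.3 measured -0.10 (SE 0.128, edgeR adjusted p = 0.852). The most counted antenna gene, LHCB1.3, measured 0.09 (SE 0.064, edgeR adjusted p = 0.689) in the wild type and 0.03 (SE 0.064, edgeR adjusted p = 0.916) in er erl2, and RBCS1A measured 0.09 (SE 0.061, edgeR adjusted p = 0.685) and 0.08 (SE 0.061, edgeR adjusted p = 0.716).

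The interaction, which tests whether the IAA response differed between genotypes, called 0 of 41 members, and none had an unadjusted p under 0.05. Over all genes the interaction called 0% at the adjusted threshold and 5.98% had an unadjusted p under 0.05, and DESeq2 called 0 members. The estimates ran from -0.32 to 0.10, and the lowest was LHCB4.3, at -0.32 (SE 0.186, edgeR adjusted p = 0.81). The step from 12 members called under mock to 7 under IAA was thus not matched by a called interaction.

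**Figure D4:**
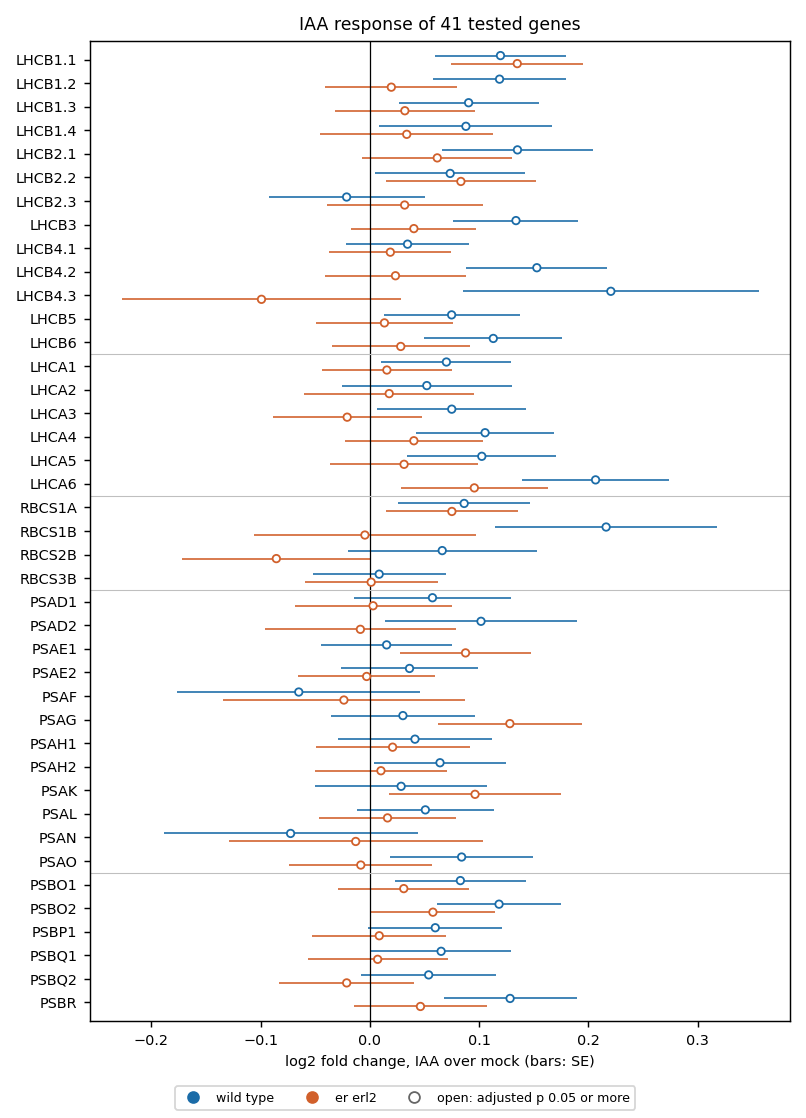
Log2 fold change of IAA over mock (x axis) for the 41 tested genes (y axis, grouped by role), in the wild type in blue and er erl2 in orange, with bars for the SE. Every point is open (adjusted p 0.05 or more), and the estimates stay between -0.10 and 0.22.

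LHCB1.5 was at 0 counts in all 12 libraries, and this does not measure its expression. Its exons lie wholly under exons of genes annotated on the other strand. Of 337 protein-coding genes in this position 335 (99.4%) had 0 counts in every library, against 2451 of 19899 (12.3%) with no exon base under another gene. The library kit keeps strand, but whether the counting used it is not given in the sources used here. Antenna members partly in this position include LHCB2.3 (40.6% of exon bases), LHCB6 (20.4%) and LHCB3 (15%), so their levels are uncertain as well.

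Genes that make chlorophyll, which antenna proteins need to fold, were compared from a list of 14. Under mock 8 were higher and 0 lower, and under IAA 7 were higher and 0 lower. For these and the other lists below, the shares of all tested genes were 8.4% higher and 7.33% lower under mock and 7.14% higher and 6.84% lower under IAA. PORA, PORB and PORC encode protochlorophyllide oxidoreductases, the light-dependent step of the pathway. PORA measured 1.1, 1.05 and 0.98 CPM in the wild type under mock and 1.45, 1.1 and 0.823 under IAA, against 5.29, 5.0 and 3.68 in er erl2 under mock and 4.93, 4.99 and 5.17 under IAA. PORB measured 157, 101 and 120.1 CPM in the wild type under mock and 134, 139.6 and 139 under IAA, against 323, 366 and 416 in er erl2 under mock and 261, 348 and 261 under IAA. PORC measured 79.0, 73.3 and 84.9 CPM in the wild type under mock and 87.7, 81.7 and 87.9 under IAA, against 110.3, 105 and 119 in er erl2 under mock and 113, 122 and 117 under IAA. In each of these genes all er erl2 libraries stood above all wild-type ones. PORA was higher, at 2.15 (SE 0.207, edgeR adjusted p = 7.26e-06) under mock and 2.15 (SE 0.202, edgeR adjusted p = 5.8e-06) under IAA. PORB was higher, at 1.55 (SE 0.167, edgeR adjusted p = 0.000181) and 1.08 (SE 0.166, edgeR adjusted p = 0.00193), and PORC at 0.50 (SE 0.066, edgeR adjusted p = 0.00017) and 0.45 (SE 0.066, edgeR adjusted p = 0.000424). DVR, a divinyl reductase of the pathway, was 0.44 and 0.41 higher on the log2 scale. HEMA1, the glutamyl-tRNA reductase that starts the pathway, measured 0.19 (SE 0.101, edgeR adjusted p = 0.245) under mock and was higher under IAA, at 0.49 (SE 0.101, edgeR adjusted p = 0.00631). HEMA2, its paralog, was the single gene of the compared lists that rose with IAA, in er erl2, at 0.59 (SE 0.118, edgeR adjusted p = 0.0216). The replicate block ended that call. No gene of the lists was called for IAA in er erl2 without any 1 er erl2 mock library or without the first or the third er erl2 IAA library, and the interaction test did not call it (edgeR adjusted p = 0.806).

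Of 15 regulators of these genes 2 were higher and 1 lower under mock, and 2 were higher and 0 lower under IAA, counts close to those all-gene shares. GLK1, a transcription factor that activates antenna and chlorophyll genes, measured 29.2, 32.1 and 30.6 CPM in the wild type under mock and 32.3, 31.9 and 37.5 under IAA, against 37.6, 43.8 and 43.1 in er erl2 under mock and 45.0, 44.4 and 43.5 under IAA. Each er erl2 library stood above each wild-type one, though by little at the margin. It was higher in both treatments, at 0.44 (SE 0.076, edgeR adjusted p = 0.00139) and 0.39 (SE 0.076, edgeR adjusted p = 0.00369). GLK2 measured 0.37 (SE 0.145, edgeR adjusted p = 0.111) and -0.25 (SE 0.144, edgeR adjusted p = 0.291). PIF4, a growth-promoting factor that light-activated phytochrome opposes, was higher, at 0.66 (SE 0.112, edgeR adjusted p = 0.00144) and 0.42 (SE 0.111, edgeR adjusted p = 0.024); its IAA call was lost in 4 refits that each left out 1 library. HY5, a light-signalling activator, measured -0.23 and -0.25, and its homolog HYH was lower under mock, at -0.63 (SE 0.088, edgeR adjusted p = 0.000232), and measured -0.21 under IAA.

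Among 13 genes of antenna import and of antenna-like proteins, 3 were higher and 2 lower under mock, and 1 was higher and 1 lower under IAA. CPSRP43, which carries antenna proteins through the stroma, was higher under mock, at 0.41 (SE 0.073, edgeR adjusted p = 0.0017), and LIL3:2, an antenna-like protein of chlorophyll synthesis, in both, at 0.27 (SE 0.064, edgeR adjusted p = 0.0119) and 0.31 (SE 0.064, edgeR adjusted p = 0.00486). ELIP1 and ELIP2, early light-induced proteins, were lower under mock, at -0.52 (SE 0.160, edgeR adjusted p = 0.0394) and -0.47 (SE 0.128, edgeR adjusted p = 0.0225), calls lost in 8 and 4 refits without 1 library. The other higher gene under mock was AKRP, at 0.18 (SE 0.056, edgeR adjusted p = 0.0424), an ankyrin-repeat plastid protein that fits the name of the list only loosely. OHP1, a one-helix protein, was lower under IAA, at -0.24 (SE 0.077, edgeR adjusted p = 0.0499), a call lost in 16 of 18 refits. In the next lists at most 2 genes were called in a contrast. In the Calvin cycle 2 of 14 genes were higher under mock, TKL1 (transketolase, 0.28) and PRK (phosphoribulokinase, 0.26), and TKL1 under IAA (0.26). RCA, the Rubisco activase, measured -0.08 and -0.14, and GAPA1, also of this list, measured 0.13 and 0.12. Both were listed as markers of green tissue, and neither was called in either genotype contrast. Of 10 electron transport and ATP synthase genes FNR2 (0.31) and ATPD (0.24) were higher under mock and 0 under IAA, where 0 were lower. Of 10 other photosystem and thylakoid genes PPD5 (0.24) and PSB28 (0.22) were higher under mock and PPD5 (0.32) under IAA. The mock calls of PSB28, PPD5, ATPD and LIL3:2 were lost in 8, 4, 3 and 2 of 18 refits.

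**Figure D5:**
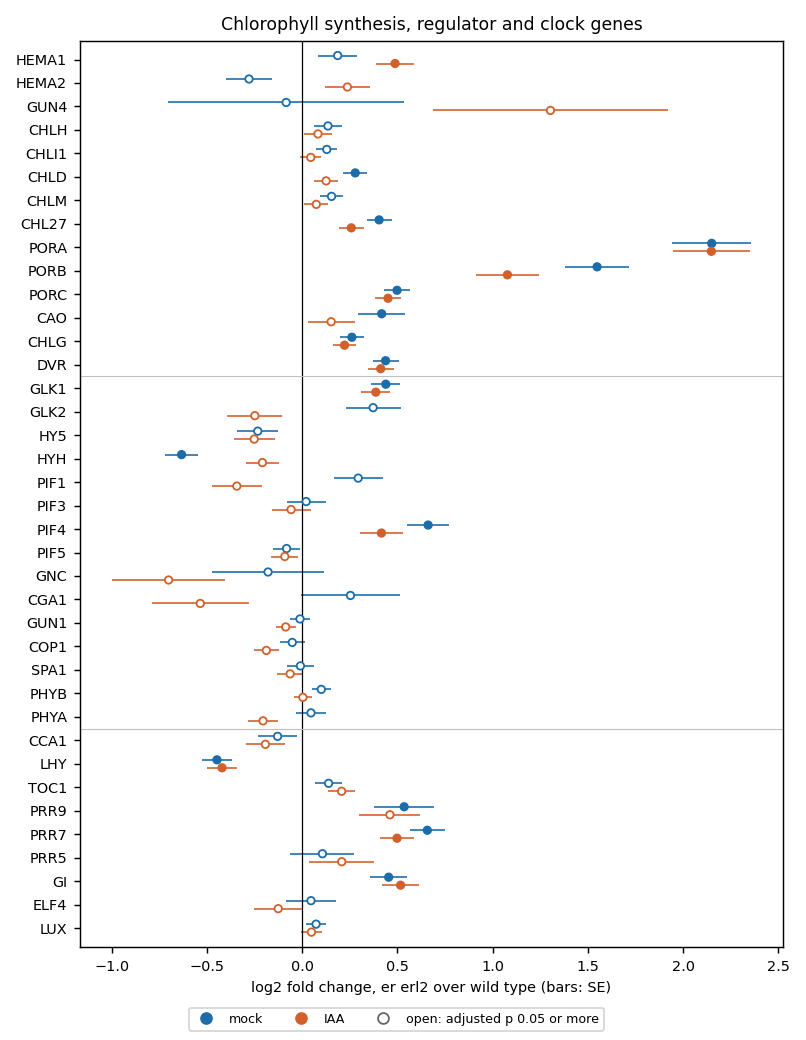
Log2 fold change of er erl2 over wild type (x axis) under mock in blue and IAA in orange, with bars for the SE, for genes of chlorophyll synthesis, regulators and the clock (y axis, in this order from the top). Filled points have an adjusted p under 0.05; PORA and PORB lie farthest to the right, and LHY is the filled clock point to the left in both treatments.

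Other measured features moved with genotype beside the antenna genes, and their part in the antenna result was not tested. Of 9 clock genes, whose products gate LHCB expression by time of day, 3 were higher and 1 lower under mock, and 2 were higher and 1 lower under IAA. LHY, a morning clock factor, was lower, at -0.45 (SE 0.081, edgeR adjusted p = 0.00187) and -0.42 (SE 0.081, edgeR adjusted p = 0.00323), while its partner CCA1 measured -0.13 and -0.19. PRR7 and GI were higher, PRR7 at 0.66 and 0.50 and GI at 0.45 and 0.52. PRR9 was higher under mock, at 0.54 (SE 0.159, edgeR adjusted p = 0.0346), and measured 0.46 (SE 0.160, edgeR adjusted p = 0.0709) under IAA. TOC1, PRR5, ELF4 and LUX were not called in either treatment. The labels give no time of harvest. The summed clock level was 527 to 549 CPM in wild-type mock, 539 to 561 in er erl2 mock, 542 to 594 in wild-type IAA and 533 to 587 in er erl2 IAA.

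Of 6 guard cell and epidermis markers 4 were higher and 1 lower under mock, and 4 were higher and 0 lower under IAA. The stomatal lineage genes TMM and SPCH were higher, TMM at 1.92 and 1.69 and SPCH at 1.28 and 1.25, as were MYB60 of guard cells at 0.55 and 0.84 and FAMA, which acts late in the lineage, at 0.63 and 0.70. PDF1 of the epidermis was lower under mock, at -0.37 (SE 0.084, edgeR adjusted p = 0.00782), and measured -0.14 under IAA. The summed level of the 6 guard cell and epidermis markers was 306 to 329 CPM in wild-type mock and 334 to 352 in er erl2 mock, and 281 to 319.8 and 307 to 365 in the IAA groups. Of 8 root markers TIP2;3 (0.58) was higher and COBL9 (-0.64) lower under mock, and PHT1;1 (-0.40) was lower under IAA; the mock calls of TIP2;3 and COBL9 were lost in 3 and 10 of 18 refits. The summed root level was 279.2 to 303.2 CPM in wild-type mock, 259.9 to 278.8 in er erl2 mock, 269.8 to 310.8 in wild-type IAA and 244.4 to 258.3 in er erl2 IAA, without overlap between genotypes in either treatment, though by little under mock. The single root markers did not move together: 3 of 8 had a log2 fold change above 0 under mock and 4 of 8 under IAA. Their medians were -0.07 and -0.03. Of 8 seed reserve markers 2 were tested and 0 called, and their sum stayed between 2.7 and 9.61 CPM. No gene of these marker lists was at 0 in all libraries.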

How the data were processed

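The members were chosen by locus code and family, and the gene lists compared with them by function; members and lists were chosen with earlier results of these data known, so no p adjusted over a list is given. RNA was poly(A)-selected and made into strand-specific libraries, per the labels' protocols. The authors deposited raw read counts per gene for 12 libraries in 1 table; bcl2fastq, STAR 2.7.6a and featureCounts 2.0.0 with the build TAIR10 are named in the submitters' processing notes, and the strand setting is not given in the sources used here. The counts were analysed as deposited, with totals of 28930625 to 35837999 per library, in R 4.3.3 with edgeR 4.0.16 (filterByExpr with a minimum count of 10 and a minimum total of 15, TMM factors of 0.973 to 1.02, robust quasi-likelihood fits over all 4 groups) and Benjamini-Hochberg adjustment over 21376 genes. The biological coefficient of variation was 0.102. CPM are TMM-scaled. No pair of libraries in a group agreed within sampling noise. The code was tested on simulated counts.

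Alternatives were no filter on counts, a stricter one at a mean of 1 CPM, DESeq2 size factors, TMM without the members and organelle genes, DESeq2 1.42.0's Wald test, a replicate block, and leaving out each library in turn, in all 18 refits. Copies were also summed within each of 9 families, whether or not they were near-identical. Values in every library are given for the member of highest mean CPM in each family class, for members called in any contrast (the 10 of smallest p), and for those of largest and smallest log2 fold change; from each list up to 3 called genes of smallest p per genotype contrast are named, and HEMA1, GLK1, GLK2, HY5, RCA and ELIP1 in any case. The ratios, the shares within families, HEMA2, CCA1, PRR9, the uncalled clock genes, AKRP, PDF1, FAMA and the genes of unadjusted p under 0.05 for IAA fall outside this rule and were chosen after their values were seen. GAPA1 also falls outside it and is named as a listed marker of green tissue. Exon lengths, coordinates, promoters and overlaps come from RefSeq's TAIR10.1 annotation.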

Additional observations from a re-analysis of the deposited data

How the results depend on the processing

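Of 376 summary values recomputed under other settings 346 stayed within a tolerance, which does not mean that they were unchanged. Counts could move by a limited fold, and shares of counts by less than the SD of their group. Median log2 fold changes could move by less than 0.068, the SD between replicates of the members' median log2 CPM. Counts of 0 that stayed at 0 are among the 346. Of 1152 values of single genes or sums 1024 kept their call, 128 lost it and 0 reversed. Members called under mock (12) ranged from 10 to 13 over the settings that keep all libraries and from 6 to 14 with 1 library left out, and members called under IAA (7) from 6 to 8 and from 3 to 7. Summed families called ranged from 1 to 2 under mock and from 0 to 2 under IAA with 1 library left out, and fell from 2 to 1 under IAA with the replicate block. Context list genes called under mock (33) ranged from 21 (without the second wild-type mock library) to 36, those called for IAA in the wild type (0) from 0 to 1, with 1 by DESeq2's Wald test, and those for IAA in er erl2 (1) from 0 to 2, with 2 by DESeq2 and 0 with the replicate block; the cause was not tested. Libraries of different groups share replicate numbers in their titles, and 18 correlations of same-numbered libraries' deviations ran from -0.175 to 0.0935, with 0 over 0.1. The column headers of the deposited counts number several libraries otherwise. Pairing by the header numbers was not examined, so these correlations cannot exclude that libraries were paired. The replicate block used the title numbers as well. The block ended the calls of LHCB1.3 and RBCS3B under mock and of RBCS3B and PSAD2 under IAA. With 3 libraries a group the SE of the members' log2 fold changes under mock was 0.056 to 0.132.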

Other observations

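The plastid genome encodes the partners of these nuclear genes, and its transcripts mostly lack the poly(A) tails by which these libraries were selected. Organelle genes took 0.0276% to 0.0344% of counts. rbcL, the Rubisco large subunit that pairs with RBCS, had 215, 211 and 175 counts in the wild type under mock and 278, 304 and 311 under IAA, against 232, 199 and 238 in er erl2 under mock and 183, 278 and 213 under IAA. Scaled to CPM, the genotypes overlapped under mock and under IAA. rbcL measured 0.03 (SE 0.168, edgeR adjusted p = 0.938) under mock and -0.35 (SE 0.165, edgeR adjusted p = 0.18) under IAA. psbA, the D1 protein of photosystem II, measured -0.24 (SE 0.168, edgeR adjusted p = 0.378) under mock, and psaA, a core protein of photosystem I, -0.08 (SE 0.177, edgeR adjusted p = 0.82). In the wild type the IAA over mock log2 fold change was 0.41 for psbA, 0.46 for psaA and 0.46 for rbcL, none of them called (smallest edgeR adjusted p of these, 0.344). Within the LHCB1 copies LHCB1.3 held 49.8% to 51.9% of the summed counts over all 12 libraries, and LHCB1.4 held 11 to 11.8% in wild-type mock and 11.7 to 12.6% in er erl2 mock. PSAD2 held 20 to 21.2% of the PSAD counts in wild-type mock, 20.6 to 21.6% in wild-type IAA, 23.4 to 24.6% for er erl2 under mock and 23 to 24.7% for er erl2 under IAA, without overlap between genotypes.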
